A study of Mus musculus with 24 samples.

Results

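The duodenum of 3 *Hfe*-/- (KO) and 3 wild-type (WT) mice of the DBA/2 (D2) strain was compared on Affymetrix Mouse Genome 430 2.0 arrays, with 1 array per mouse. These are the 6 of the 24 arrays of the study whose labels name duodenum, D2 and either genotype, and no array was left out by its values. The other arrays hold D2 liver and both organs of C57BL/6 (B6) mice, again with 3 mice per genotype. By the study's methods 3 mice of each strain and genotype were profiled, so that liver and duodenum of a group came from the same mice. All mice were males, were 7 weeks old, ate a standard iron-containing diet and were fasted before they were killed. The D2 WT mice carried both intact copies of *Hfe* and had been purchased, whereas the D2 KO mice were homozygous for the disrupted gene and had been bred in the animal facility of the study, so that the origin of the mice and any alleles carried along with the disrupted locus cannot be told apart from genotype. The arrays measured RNA of dissected pieces of duodenum, in which fewer cells of a type and less RNA per cell cannot be told apart.

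*Hfe* encodes a major histocompatibility complex class I-like protein that binds the transferrin receptor and takes part in the control of hepcidin, the liver hormone that limits the release of iron into blood. The duodenum is the main site of iron uptake from food: the ferric reductase *Cybrd1* reduces iron at the brush border, the transporter *Slc11a2* takes it into the enterocyte, and the exporter *Slc40a1*, with the oxidase *Heph*, passes it to the blood. Loss of *Hfe* causes iron overload in humans and mice, and D2 is a strain that loads more iron than B6.

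The values are signals on a linear scale with an arbitrary unit, set so that each array has the same trimmed mean of 100. A probe set, or the gene it stands for, counted as changed, or called, where limma gave an adjusted p of 0.1 or less, and log2 fold changes are KO minus WT. Over all 13006 genes tested 0.492% were called, and counts of called genes in a list are to be read beside that share. The median signal was 20.02 to 23.4 on the 12 duodenum arrays, and the RNA integrity ratios of 3' to 5' probe sets were 0.73 to 0.85 for Gapdh and 1.25 to 1.58 for actin. Villus transcripts were abundant on every array and the 10 hepatocyte markers tested were near the lower end of the scale. The 3 KO arrays were not alike. Pancreatic acinar transcripts, which come from a neighbouring organ, were abundant on D2 KO 1 and on the WT arrays and low on D2 KO 2 and D2 KO 3.

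*Hfe* itself was lower in every KO array. Its signals were 105, 97.4 and 95.3 in the wild-type arrays and 29.0, 34.8 and 45.1 in the *Hfe*-/- arrays, with means of 99.2 ± 5 and 36.3 ± 8.17 (SD, n = 3 each), and the groups did not overlap (log2 fold change -1.47, SE 0.22, adjusted p = 0.0283). A residual signal remained in the KO mice, and the sources used here do not give the position of the probe set relative to the disrupted part of the gene. The call was lost without D2 WT 1 (-1.43, adjusted p = 0.134) or D2 KO 2 (-1.46, adjusted p = 0.130), and a second *Hfe* probe set near the lower end of the scale brought the mean of both probe sets to -1.06 (adjusted p = 0.564). B6 duodenum had 92.9, 76.6 and 98.7 in WT and 25.7, 25.4 and 15.7 in KO mice, a log2 fold change of -2.03 (adjusted p = 0.00815).

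**Figure D1:**
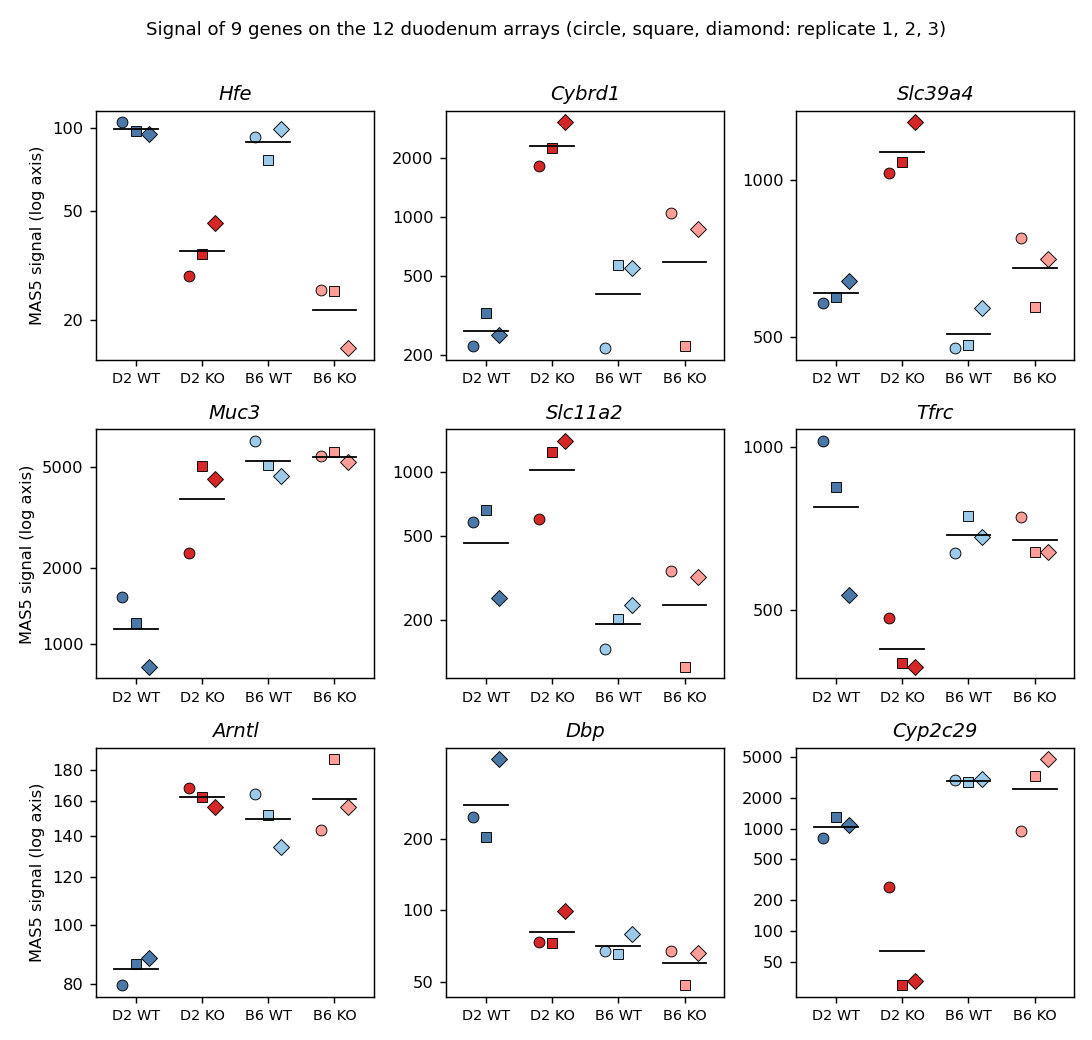
MAS5 signal, on a log axis, of 9 genes on each of the 12 duodenum arrays; circles, squares and diamonds are replicates 1, 2 and 3 and the line is the geometric mean of a group. *Hfe* and *Dbp* are lower and *Cybrd1*, *Slc39a4*, *Muc3* and *Arntl* higher on all 3 D2 KO arrays than on any D2 WT array, whereas the D2 groups overlap for *Slc11a2*.

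Among genes of iron absorption, the ferric reductase *Cybrd1* rose most. Its signal was 221, 326 and 253 in the wild-type arrays and 1810.3, 2227 and 3022 in the *Hfe*-/- arrays, from a mean of 267 ± 53.7 to 2353 ± 616 (SD, n = 3 each), and the lowest KO array stood far above the highest WT array (log2 fold change 3.13, SE 0.50, adjusted p = 0.0386). A second *Cybrd1* probe set was also called (log2 fold change 2.41, adjusted p = 0.0518). In B6 duodenum *Cybrd1* was 216, 571 and 549 in WT and 1052, 222 and 874 in KO mice, where the groups overlapped (0.53, adjusted p = 0.921); the difference of 2.60 between the strains' effects did not pass the test (adjusted p = 0.306). The D2 call was lost without D2 WT 1, D2 KO 2 or D2 KO 3, at log2 fold changes of 2.93 to 3.15.

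The duodenal pieces differed in how much submucosal gland they held, and *Cybrd1* was set beside that measure. *Gkn3*, a marker of Brunner glands, which lie under the first stretch of the duodenum, was 84.4, 8895 and 124 in the wild-type arrays and 667, 113 and 6225 in the *Hfe*-/- arrays. It was thus high on D2 WT 2 and D2 KO 3 and low on D2 KO 2, D2 WT 1 and D2 WT 3, with 1 intermediate array. *Tff2*, a peptide of the same glands, was 234, 8297 and 438 against 2024, 7.06 and 6498. In B6 mice *Gkn3* was 313, 8214 and 7768 in WT and 9518, 229 and 10497 in KO mice, and the 2 arrays lowest in *Gkn3* were also the 2 lowest in *Cybrd1*. Among D2 mice, D2 KO 2 had a *Cybrd1* signal of 2227 with *Gkn3* at 113, and D2 WT 2 had *Cybrd1* at 326 with *Gkn3* at 8895. The part of the glands in the *Cybrd1* values was not tested.

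**Figure D2:**
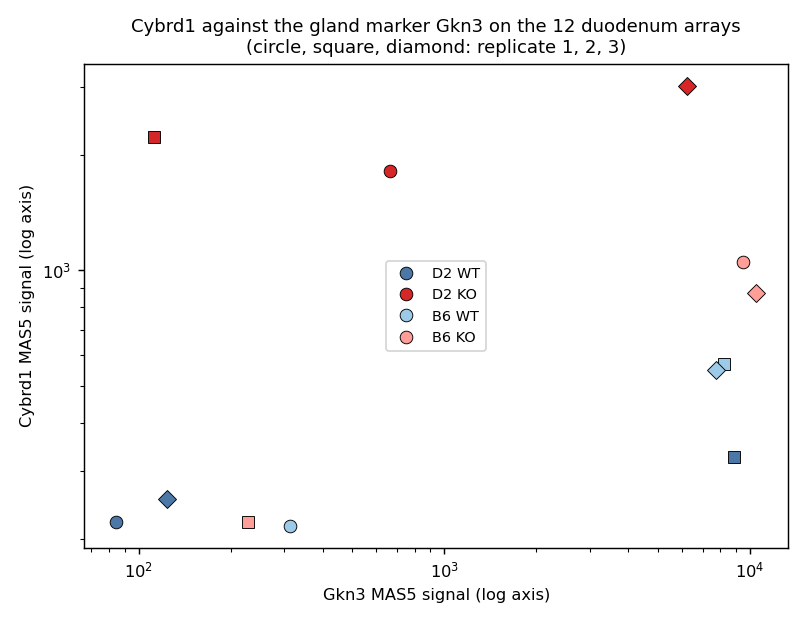
*Cybrd1* signal against *Gkn3* signal, both on log axes, on the 12 duodenum arrays; colour gives strain and genotype and the shape the replicate. The 3 D2 KO arrays lie between 1810.3 and 3022 in *Cybrd1* at low, intermediate and high *Gkn3*, above the 3 D2 WT arrays at 221 to 326.

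The zinc importer *Slc39a4* of the enterocyte brush border rose as well. Its signals were 581, 596 and 641 in the wild-type arrays and 1031, 1084 and 1292 in the *Hfe*-/- arrays, with little spread within a group (log2 fold change 0.90, SE 0.12, adjusted p = 0.0144), and the call remained without any 1 of the 12 arrays, at log2 fold changes of 0.80 to 0.97. *Muc3*, a membrane mucin of the brush border, was 1539, 1209 and 812 in the wild-type arrays and 2294, 5057 and 4473 in the *Hfe*-/- arrays (log2 fold change 1.70, SE 0.27, adjusted p = 0.0379). In B6 mice *Muc3* was 6332, 5072 and 4611 in WT and 5515, 5725 and 5229 in KO mice, so that D2 KO 1 lay between D2 WT and B6, and D2 KO 2 and D2 KO 3 were within or just under the B6 range. *Muc3* was not called when D2 KO 2 or D2 KO 3 was left out, at 1.48 to 1.57. The exact permutation p was 0.1 for *Hfe*, *Cybrd1*, *Slc39a4* and *Muc3* alike, which is the smallest 2-sided value that 3 arrays against 3 allow.

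The remaining iron transport genes did not pass the test. *Slc11a2*, the apical iron importer, was 584, 661 and 255 in the wild-type arrays and 602, 1246 and 1404 in the *Hfe*-/- arrays, with D2 KO 1 among the WT values (log2 fold change 1.14, SE 0.44, adjusted p = 0.337). Dimmer *Slc11a2* probe sets had 0.86, 1.70 and -0.013, none of them called. At the one with 1.70 the groups did not overlap, with 161, 168 and 63.6 against 240, 468 and 531. *Slc40a1*, the basolateral exporter, was 3527, 3371 and 3679 against 3895, 4299.5 and 4518, above the WT range in each KO array but by a small step (log2 fold change 0.26, adjusted p = 0.355), and for *Heph* the value was 0.31 (adjusted p = 0.306). *Tfrc*, the transferrin receptor through which cells take up iron from blood, was 1026, 843 and 533 against 483, 399 and 393, and all 3 KO arrays lay below the WT arrays (log2 fold change -0.87, SE 0.19, adjusted p = 0.108). *Slc46a1*, which carries folate and has been described to carry heme, was 1488, 1176 and 1568 against 1825, 2290.1 and 2243 (log2 fold change 0.59, adjusted p = 0.121). Of the 17 genes of the iron absorption list, 1 rose, 0 fell and 16 were not called, with a median log2 fold change of 0.22, against 0.492% called and a median of 0.0075 over all 13006 genes tested. With the hybridization run and fluidics station as a block, which sets the KO arrays against D2 WT 3 alone, the median was 0.048. The count was 2 without D2 KO 1 and 3 without D2 WT 3, where 3.31% and 0.9% of all genes were called, and 0 without D2 KO 2, D2 KO 3 or D2 WT 1.

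Transporters of other metals and of vitamin C were listed apart. Of 25 such genes 1 was called, *Slc39a4*, which rose, against 0.492% of all genes called, and the median was 0.06. *Slc31a1*, the copper importer, was 376, 380.0 and 457 against 505, 593 and 638 (log2 fold change 0.52, adjusted p = 0.158). *Slc23a2*, a vitamin C transporter, was 629, 656 and 572 against 723, 938 and 985 (log2 fold change 0.50, adjusted p = 0.192), and *Slc39a14*, a carrier of zinc and iron, was 554, 488 and 476 against 583, 801 and 721 (log2 fold change 0.46, adjusted p = 0.212). In all of these the KO arrays lay above the WT arrays without a call. *Atp7a*, the copper-exporting ATPase, stood at 0.39 (adjusted p = 0.15) on the log2 scale, and the metallothionein *Mt2*, which binds zinc and copper, was 1593, 1578 and 1313 against 2648, 2003 and 2685 (log2 fold change 0.70, adjusted p = 0.199). Without D2 KO 1, 5 of these genes were called, in a fit that called 3.31% of all genes.

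Apart from defense genes, the study names 10 tested genes for duodenum, most of them of iron metabolism or transport, of which 3 rose (*Cybrd1*, *Slc39a4* and *Muc3*), *Hfe* fell and 6 were not called. It chose them on these same arrays, so their direction here is not independent evidence. The study also measured *Cybrd1*, *Slc39a4*, *Muc3* and *Clca4* in duodenum by quantitative PCR, with further mice that were not on arrays. Of the genes measured so in liver or duodenum, it reports concordant results for all but the liver gene *Hfe2*. For the liver genes *Lcn2*, *Hamp1* and *Hamp2*, however, it found the fall in D2 KO in the array samples and not in the further mice. There *Hamp1* and *Hamp2* had only a trend. *Ireb2*, the iron regulatory protein 2, was 569.7, 640.0 and 619 against 671, 869 and 860.1 (log2 fold change 0.38, adjusted p = 0.28). *Clca3b*, the gene the study names *Clca4* and lists among highly regulated genes, was not called here and its groups overlapped. It was 106, 261 and 187 against 121, 94.5 and 89.2 (log2 fold change -0.78, adjusted p = 0.413). Without D2 KO 1, which raised the share called of all genes to 3.31%, 7 of the 10 rose and 2 fell, and without D2 KO 2 only 1 rose. Of 21 genes of hypoxia signaling 0 were called, against 0.492% of all genes, and the median was 0.11. *Cybrd1* and *Slc11a2*, read above with the iron absorption genes, are not among these 21. *Hif1a*, an oxygen-regulated transcription factor, was 649, 728 and 762 against 519, 519.6 and 457 (log2 fold change -0.51, adjusted p = 0.15). *Epas1*, the hypoxia factor that controls iron absorption genes in enterocytes, was 909, 1000.3 and 983 against 1039.7, 1204 and 1222 (log2 fold change 0.26, adjusted p = 0.449). The hypoxia target *Car9* was 391, 479 and 494 against 587, 624 and 591 (log2 fold change 0.41, adjusted p = 0.327).

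Over the whole array, 72 of 28061 probe sets rose and 34 fell, which is 0.378%, and 3321 had an unadjusted p under 0.05. Counted by gene, 43 of 13006 rose (0.331%) and 21 fell (0.161%). Rises had a median log2 fold change of 0.80 and falls one of -1.06, and 13 rises and 12 falls were at least 2-fold. In all 64 called genes the KO and WT arrays did not overlap, as they did not in 16.5% of all genes. Counts depended on single arrays: without D2 KO 1, 783 probe sets were called (105 of the 106 among them), and without D2 WT 1, D2 KO 2 or D2 KO 3 the numbers were 20, 17 and 18. D2 KO 1 was the lowest KO array, and so nearest to the WT side, in 33 of the 43 rises, against 36.9% of all genes. It was the highest KO array in 13 of the 21 falls, for which the share of all genes was not counted.

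Leaving out each of the 12 arrays in turn, 9 genes were called every time: *Akr1c19*, *Arntl*, *Dbp*, *Epdr1*, *Hao2*, *Pxdc1*, *Slc39a4*, *Stard3nl* and *Tspan4*. *Akr1c19*, an aldo-keto reductase, had the smallest adjusted p of a gene. Its signals were 2323, 1902 and 2267 in the wild-type arrays and 423, 558 and 546 in the *Hfe*-/- arrays, a clear gap between the groups (log2 fold change -2.09, SE 0.16, adjusted p = 0.000112). *Epdr1*, an ependymin-related protein, was 32.2, 31.0 and 31.1 in the wild-type arrays and 121, 258 and 238 in the *Hfe*-/- arrays (log2 fold change 2.63, SE 0.29, adjusted p = 0.00492), and D2 KO 1 stood between the WT arrays and the other KO arrays. The tetraspanin *Tspan4* was 49.7, 59.5 and 65.1 in the wild-type arrays and 18.4, 22.0 and 15.9 in the *Hfe*-/- arrays (log2 fold change -1.64, SE 0.21, adjusted p = 0.00968). *Hao2*, a peroxisomal oxidase of 2-hydroxy acids, was 1.41, 1.19 and 0.697 in the wild-type arrays and 14.9, 18.8 and 22.3 in the *Hfe*-/- arrays, so that the WT level is near the lower end of the scale and the size of the change is poorly measured (log2 fold change 4.13, SE 0.47, adjusted p = 0.00492). In B6 WT mice *Hao2* was 10.8, 28.4 and 19.8, near the level of D2 KO. B6 KO mice had 37.5, 30.6 and 18.2.

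Of the 64 called genes, 11 lie closer than 20 Mb to *Hfe* on chromosome 13, in the order of the RefSeq table of GRCm38.p6. The 11 include *Hfe* itself, the disrupted gene, so that not all of them are neighbours. With *Hfe* counted they make up 7.69% of the 143 genes tested there, against 53 of 12863 genes elsewhere (0.412%). From one end of the window to the other they are *Akr1c19*, *Ggps1*, *Stard3nl*, *Epdr1*, *Zkscan3*, *Hfe*, *Pxdc1*, *Eci3*, *Nrn1*, *Dsp* and *Mcur1*, of which 6 rose and 5 fell. Another called gene, *Asb13*, lies just outside the window.

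Rises in this stretch were as follows. *Pxdc1* was 139, 128 and 136 in the wild-type arrays and 359, 428 and 363 in the *Hfe*-/- arrays (log2 fold change 1.51, SE 0.19, adjusted p = 0.00881). *Eci3*, an enoyl-CoA isomerase of fatty acid oxidation, was 157, 109.8 and 157 against 330.2, 484 and 422 (log2 fold change 1.54, SE 0.22, adjusted p = 0.0204). *Stard3nl*, a membrane protein of late endosomes, was 131, 148 and 149.7 against 255, 294 and 289 (log2 fold change 0.96, SE 0.13, adjusted p = 0.0111). In these genes each KO array was above each WT array by more than the spread within either group. The zinc-finger factor *Zkscan3* was 251, 203 and 222 against 333, 389 and 362 (log2 fold change 0.68, adjusted p = 0.0385), although its other 2 probe sets, neither called, had 0.035 and -0.053. Desmoplakin, *Dsp*, which anchors intermediate filaments to desmosomes, was 1254, 1317 and 1256 against 1594, 2132 and 1903 (log2 fold change 0.55, adjusted p = 0.0763). A second *Dsp* probe set went the other way without a call (-0.17, adjusted p = 0.520). *Asb13*, a SOCS box protein, was 145, 153 and 220.3 against 322, 353 and 352 (log2 fold change 1.01, adjusted p = 0.0228), and 2 of its 3 probe sets were called.

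Falls in the same stretch were smaller than that of *Akr1c19*. *Ggps1*, which makes geranylgeranyl diphosphate for protein prenylation, was 163, 114 and 118 against 69.5, 82.0 and 77.2 (log2 fold change -0.77, adjusted p = 0.0888). *Nrn1*, the neuritin gene, was 99.2, 82.3 and 97.5 against 56.5, 44.9 and 34.7 (log2 fold change -1.06, adjusted p = 0.095), and *Mcur1*, which regulates calcium uptake by mitochondria, was 1203, 1125 and 1185 against 608, 849 and 811 (log2 fold change -0.65, adjusted p = 0.0839). Dimmer probe sets of 2 of these genes were not called, with -0.14, -0.099 and -0.043 for *Ggps1* and 0.0046 for *Mcur1*. Calls of *Ggps1*, *Nrn1* and *Mcur1* were lost without any 1 of 8 or 9 of the 12 arrays, D2 KO 2 and D2 KO 3 among them, at log2 fold changes of -0.83 to -0.61, -1.15 to -0.88 and -0.74 to -0.63. The calls of *Eci3* and *Zkscan3* did not hold when D2 KO 2 or D2 KO 3 was left out, and that of *Asb13* also when D2 WT 1 was, at 1.42 to 1.52, 0.63 to 0.68 and 0.90 to 0.99. *Dsp* lost its call when D2 KO 2, D2 KO 3, D2 WT 1, D2 WT 2, B6 WT 2 or B6 WT 3 was left out, at 0.45 to 0.57.

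The genes of this stretch were also read in B6 duodenum and in D2 liver, the latter taken from the same D2 mice and not from other animals. In B6 mice *Hfe* and *Ggps1* were the only 2 of the 64 genes called, *Ggps1* with -1.20 (adjusted p = 0.0343), against 0.0154% of all genes. *Akr1c19* was 1847, 1596 and 1371 in B6 WT and 1195, 1779 and 1556 in B6 KO mice, overlapping groups, and the D2 effect differed from the B6 effect by -2.0 (adjusted p = 0.0109). *Stard3nl* was 272, 246 and 234 and 252, 185 and 197 in B6, with a difference of effects of 1.22 (adjusted p = 0.0881). This call of a strain difference was lost without any 1 of 8 arrays, D2 KO 2, D2 KO 3 and D2 WT 1 among them, at 1.13 to 1.27. In *Pxdc1*, *Eci3*, *Stard3nl* and *Nrn1* the D2 KO mean was nearer to the B6 WT mean than the D2 WT mean was. Means in D2 WT, D2 KO and B6 WT were 135, 383 and 371 for *Pxdc1* and 141, 412 and 303 for *Eci3*. They were 143, 279 and 251 for *Stard3nl* and 93, 45.3 and 35.5 for *Nrn1*. In the others of the 11, *Hfe* among them, the D2 KO mean was the farther one. The source of this pattern was not tested. In D2 liver 6 of the 11, *Hfe* among them, were called in the same direction, and 3 of the 53 others, *Arntl*, *Asb13* and *Gas5*. Over all genes 3.28% were called there. *Pxdc1* had 1.78 (adjusted p = 3.83e-06) and *Zkscan3* 1.29 (adjusted p = 6.7e-06) in liver, whereas *Epdr1* had 0.31 (adjusted p = 0.878) and *Eci3* -0.29 (adjusted p = 0.953).

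**Figure D3:**
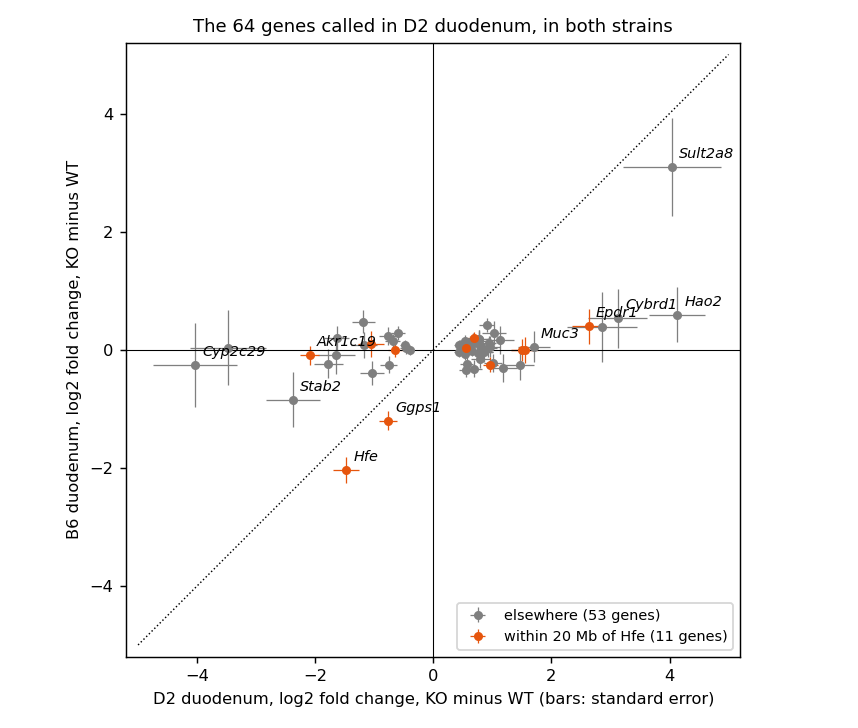
Log2 fold changes of KO against WT in D2 duodenum (x axis) and B6 duodenum (y axis) for the 64 genes called in D2, with standard errors as bars; orange points lie within 20 Mb of *Hfe* and the dotted line marks equal change. Apart from *Hfe* and *Ggps1*, which were called in both strains, the points spread along the x axis and most lie near 0 on the y axis; *Sult2a8*, at 3.10 in B6 without a call, lies farthest from it.

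Of the 43 genes that rose in D2, 27 had a positive log2 fold change in B6, with a median of 0.06, and of the 21 that fell, 11 had a negative one, with a median of -0.0042. These medians hold genes chosen by their D2 change, and the difference between strains passed the test for 4 probe sets of 28061 (0.0143%). *Sult2a8*, a sulfotransferase, was 0.273, 0.585 and 0.717 against 12.9, 7.49 and 5.24 in D2 (log2 fold change 4.04, adjusted p = 0.0923), with all WT values near the lower end of the scale, and had 3.10 in B6 (adjusted p = 0.862). With 1 array left out, its D2 call held without D2 WT 3 and was absent without any 1 of the other 11 arrays, at 3.62 to 4.34.

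Of the circadian clock genes, 1 rose and 1 fell. *Arntl*, the activator at the center of the clock, was 79.6, 86.4 and 88.2 in the wild-type arrays and 168, 163 and 157 in the *Hfe*-/- arrays (log2 fold change 0.94, SE 0.12, adjusted p = 0.0111). *Dbp*, a clock-controlled factor whose transcription the *Arntl* protein activates, was 245, 203 and 431 in the wild-type arrays and 73.5, 73.0 and 99.4 in the *Hfe*-/- arrays (log2 fold change -1.78, SE 0.24, adjusted p = 0.0144). A second, dimmer probe set of each was not called, with -0.41 for *Arntl* near the lower end of the scale and -1.43 for *Dbp*. Both groups of arrays were separated for each gene, and each gene was called without any 1 array, at 0.89 to 0.97 and -2.0 to -1.46. Of the 16 clock genes tested, these were the only 2 called, against 0.492% of all genes, and the median was -0.29. *Npas2*, an *Arntl* partner, was 67.9, 56.8 and 76.5 against 102, 116 and 86.5 (log2 fold change 0.60, adjusted p = 0.31). The repressor *Per2* was 55.0, 37.8 and 72.2 against 25.4, 34.8 and 37.0 (log2 fold change -0.73, adjusted p = 0.331), and *Tef*, a relative of *Dbp*, was 155, 141 and 215 against 134, 117 and 123 (log2 fold change -0.43, adjusted p = 0.376). In B6 mice *Arntl* was 164, 152 and 135 in WT and 143, 187 and 156 in KO mice, near the level of D2 KO, and *Dbp* was 67.5, 65.6 and 79.0 and 67.3, 48.2 and 65.8. *Arntl* was also called in D2 liver (1.34, adjusted p = 0.041).

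The largest fall was in *Cyp2c29*, a cytochrome P450 of drug and retinoid oxidation. Its signal was 810.3, 1311 and 1073 in the wild-type arrays and 268, 29.6 and 32.9 in the *Hfe*-/- arrays, and D2 KO 1 lay between the WT arrays and the other KO arrays (log2 fold change -4.03, SE 0.71, adjusted p = 0.0617). It was no longer called when D2 KO 2, D2 KO 3, D2 WT 1, D2 WT 2 or B6 WT 2 was left out, at -4.21 to -3.48, and the log2 fold change was -3.02 (adjusted p = 0.0419) with the acinar level of each array as a covariate. *Cyp2b10*, a P450 induced with *Cyp2c29* by foreign compounds, was 4761, 4288 and 4817 against 3487, 1207 and 1331 without a call (log2 fold change -1.38, adjusted p = 0.191), and D2 KO 1 was again the highest KO array. Of 32 P450 genes 1 fell and 0 rose, against 0.492% of all genes called, and the median was 0.16. *Cyp2c65*, a close relative with a high signal, was 5388, 6143 and 6111 against 5119, 4427 and 5040.3 (log2 fold change -0.27, adjusted p = 0.336).

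The further falls were in genes of unlike roles. *Stab2*, a scavenger receptor for hyaluronan on endothelium, was 102, 181 and 76.6 in the wild-type arrays and 17.3, 37.7 and 15.5 in the *Hfe*-/- arrays (log2 fold change -2.38, adjusted p = 0.0816); the 11 endothelial genes tested had a median of -0.0038 and *Stab2* was the only 1 called. In B6 mice *Stab2* was 20.6, 9.07 and 18.5 in WT and 13.7, 6.42 and 6.78 in KO mice, all below the D2 WT arrays. *Plaat3*, a phospholipase A and acyltransferase, was 651, 359 and 431 against 234, 187 and 195 (log2 fold change -1.19, adjusted p = 0.0445), and *Ptprr*, a receptor tyrosine phosphatase, was 1039, 561 and 663 against 398, 336 and 252 (log2 fold change -1.17, adjusted p = 0.0808). In both genes D2 WT 1 was well above the other WT arrays. *Ceacam1*, an adhesion molecule of epithelium and leukocytes, was 870.1, 869 and 939 against 674, 580.3 and 673 (log2 fold change -0.48, adjusted p = 0.0617), a small and even step. *Gas5*, a noncoding host RNA of small nucleolar RNAs, was 777, 729 and 675 against 568, 560.1 and 523 (log2 fold change -0.40, adjusted p = 0.0851). Calls of *Plaat3* were lost without D2 WT 1, D2 KO 2 or D2 KO 3, those of *Ptprr* also without B6 WT 2 or B6 WT 3, those of *Ceacam1* also without B6 WT 2 or B6 KO 1, at -1.15 to -0.95, -1.20 to -0.92 and -0.51 to -0.41; *Stab2* was lost without any 1 of 7 arrays, D2 KO 2, D2 KO 3, D2 WT 1, D2 WT 2, B6 KO 3, B6 WT 2 and B6 WT 3, at -2.78 to -2.04, and *Gas5* without any 1 of 9, both of D2 KO 2 and D2 KO 3 and both of D2 WT 1 and D2 WT 2 among them, at -0.41 to -0.35.

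The further rises were also in genes of unlike roles. *Phyh*, a peroxisomal enzyme that starts the breakdown of phytanic acid, was 3074, 2819 and 3308 in the wild-type arrays and 4296, 5029 and 5387 in the *Hfe*-/- arrays (log2 fold change 0.67, adjusted p = 0.0468). *Scarb1*, the receptor for high density lipoprotein, was 314, 374 and 257 against 526, 508 and 565 (log2 fold change 0.77, adjusted p = 0.0841), and *B4galt6*, which makes lactosylceramide, was 579.6, 555 and 606 against 772, 1218 and 1088 (log2 fold change 0.80, adjusted p = 0.0541). All KO arrays were above the WT arrays in these genes. *Slc38a1*, a glutamine transporter, was 318, 376 and 254 against 457, 649 and 539 (log2 fold change 0.80, adjusted p = 0.0841). *Adi1*, an enzyme of methionine salvage, was 81.8, 143 and 138 against 299, 239 and 259 (log2 fold change 1.18, adjusted p = 0.0888), and *Aldh18a1*, which starts proline synthesis from glutamate, was 1038, 1147 and 1129 against 1390.1, 1789 and 1742 (log2 fold change 0.56, adjusted p = 0.0808). D2 KO 1 was the lowest KO array in *Phyh*, *B4galt6*, *Slc38a1* and *Aldh18a1* and the highest in *Adi1*. Of 23 genes of fatty acid oxidation and fasting, *Eci3* rose and the median was 0.12; *Vnn1*, a pantetheinase that rises with fasting, was 560.2, 324 and 801 against 1520.4, 1132 and 1071 without a call (log2 fold change 1.22, adjusted p = 0.185), and its second probe set was called as rising (1.14, adjusted p = 0.0445). Of 22 genes of sterol and fatty acid synthesis, *Ggps1* fell and the median was 0.07.

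*Fzd4*, *Bok*, *Ank* and *Tinag* rose by similar amounts. *Fzd4*, a Wnt receptor, was 120.0, 139 and 111 against 243, 227 and 189 (log2 fold change 0.83, adjusted p = 0.095). *Bok*, a BCL2 family member that promotes cell death, was 81.9, 92.6 and 86.5 against 145, 179 and 174 (log2 fold change 0.93, adjusted p = 0.0468), and *Ank*, a pyrophosphate exporter, was 729.9, 702 and 630.5 against 951, 1193 and 1212 (log2 fold change 0.70, adjusted p = 0.0445). *Tinag*, a basement membrane protein, was 197, 161 and 229.8 against 274, 427 and 366 (log2 fold change 0.85, adjusted p = 0.0808). Calls of *Bok* and *Ank* were lost without D2 WT 1, D2 KO 2 or D2 KO 3, at 0.87 to 0.89 and 0.63 to 0.74, that of *Phyh* also without D2 WT 2, at 0.60 to 0.68, and that of *B4galt6* also without D2 WT 2 or B6 WT 2, at 0.66 to 0.80. *Fzd4*, *Tinag*, *Scarb1*, *Slc38a1*, *Adi1* and *Aldh18a1* were lost without any 1 of 7 or 8 of the 12 arrays, D2 WT 1, D2 KO 2 and D2 KO 3 among them, at 0.76 to 0.94, 0.71 to 0.86, 0.64 to 0.81, 0.65 to 0.81, 0.92 to 1.25 and 0.50 to 0.59.

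Pancreatic acinar genes, which encode digestive enzymes made outside the duodenum, differed widely among the arrays. *Ctrb1*, chymotrypsinogen B, was 6789, 3997 and 7759 in the wild-type arrays and 9239, 91.5 and 299 in the *Hfe*-/- arrays. *Cpb1*, pro-carboxypeptidase B, was 3748, 2425 and 5899 against 8131, 21.1 and 112, and the elastase *Cela3b* was 8391, 5761 and 9705 against 11529.5, 1305 and 832. On D2 KO 1 these transcripts were above the WT arrays, and on D2 KO 2 and D2 KO 3 they were far below them. None of the 25 acinar genes tested was called and the median was -2.19. Of these, 24 were lower on D2 KO 2 and D2 KO 3 than on every WT array, and D2 KO 1 was the highest KO array in all 25. The shares of all genes with these patterns were not counted. Without D2 KO 1, 17 fell, against 3.31% of all genes called in that fit, and the median was -4.37. The mean log2 level of the list, centred on the 12 duodenum arrays, was 0.51, -0.21 and 1.09 in WT and 2.02, -3.62 and -2.80 in KO mice.

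The same pair of KO arrays was low in other lists. Paneth cell genes, which encode antimicrobial proteins of the crypt base, had a median of -1.26 over 9 genes with 0 called and 7 that fell without D2 KO 1, a fit that called 3.31% of all genes. *Pla2g2a*, a bactericidal phospholipase, was 4915, 2435 and 1993 against 3171, 491 and 289.7 (log2 fold change -1.91, adjusted p = 0.28), *Ang4*, an antimicrobial ribonuclease, was 2499, 1701 and 1185 against 1544, 627 and 376 (log2 fold change -1.26, adjusted p = 0.246), and *Lyz1*, the Paneth cell lysozyme, was 9805, 7211 and 8367 against 8515, 5902 and 3884. Genes of B and plasma cells had a median of -0.80 over 14 genes, with 0 called and 11 that fell in that same fit without D2 KO 1. *Ighm*, the heavy chain of immunoglobulin M, was 221, 221 and 318 against 216, 43.3 and 31.0 (log2 fold change -1.91, adjusted p = 0.232) with a dimmer probe set at 0.069, *Jchain*, which joins secreted immunoglobulins, was 6491, 6383 and 7581 against 7512, 4347 and 3921, and *Igha*, the heavy chain of immunoglobulin A, was 10588, 9756 and 10813 against 10671, 8139 and 6497. In each of these genes D2 KO 1 was within the range of the WT arrays, or near it. Whether acinar, Paneth and plasma cell levels had a common source in the tissue taken was not tested.

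Genes called in the comparison were refitted with the acinar level as a covariate, an alternative fixed with earlier results known. Of the 64 genes 18 remained called, among them *Hfe* -1.66 (adjusted p = 0.0229), *Slc39a4* 0.82 (adjusted p = 0.0498), *Muc3* 1.40 (adjusted p = 0.0651), *Arntl* 0.99 (adjusted p = 0.0244), *Dbp* -1.79 (adjusted p = 0.0435) and *Akr1c19* -2.13 (adjusted p = 0.000723). *Cybrd1* kept its size but not its call, with 2.86 (adjusted p = 0.128). All 3 KO arrays and D2 WT 3 were processed on 1 fluidics station and the other 2 WT arrays on another. A fit with run and station as a block therefore set the mean of the 3 KO arrays against D2 WT 3 alone. Its log2 fold changes and calls rest on 1 WT array, which was the highest WT array for *Dbp* and the lowest for *Muc3*. With run and station as a block 12 of the 64 remained called. With the block *Cybrd1* had 3.18 (adjusted p = 0.152), *Slc39a4* 0.82 (adjusted p = 0.135), *Arntl* 0.88 (adjusted p = 0.114), *Muc3* 2.20 (adjusted p = 0.0611) and *Dbp* -2.41 (adjusted p = 0.00714). The block moved list medians too, to -0.77 for Paneth cell, -1.12 for T and NK cell, -0.53 for clock, -0.30 for endothelial and 0.053 for fatty acid oxidation genes and to 0.14 for metal and vitamin C carriers, and it turned those of brush border and P450 genes to -0.15 and -0.20.

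**Figure D4:**
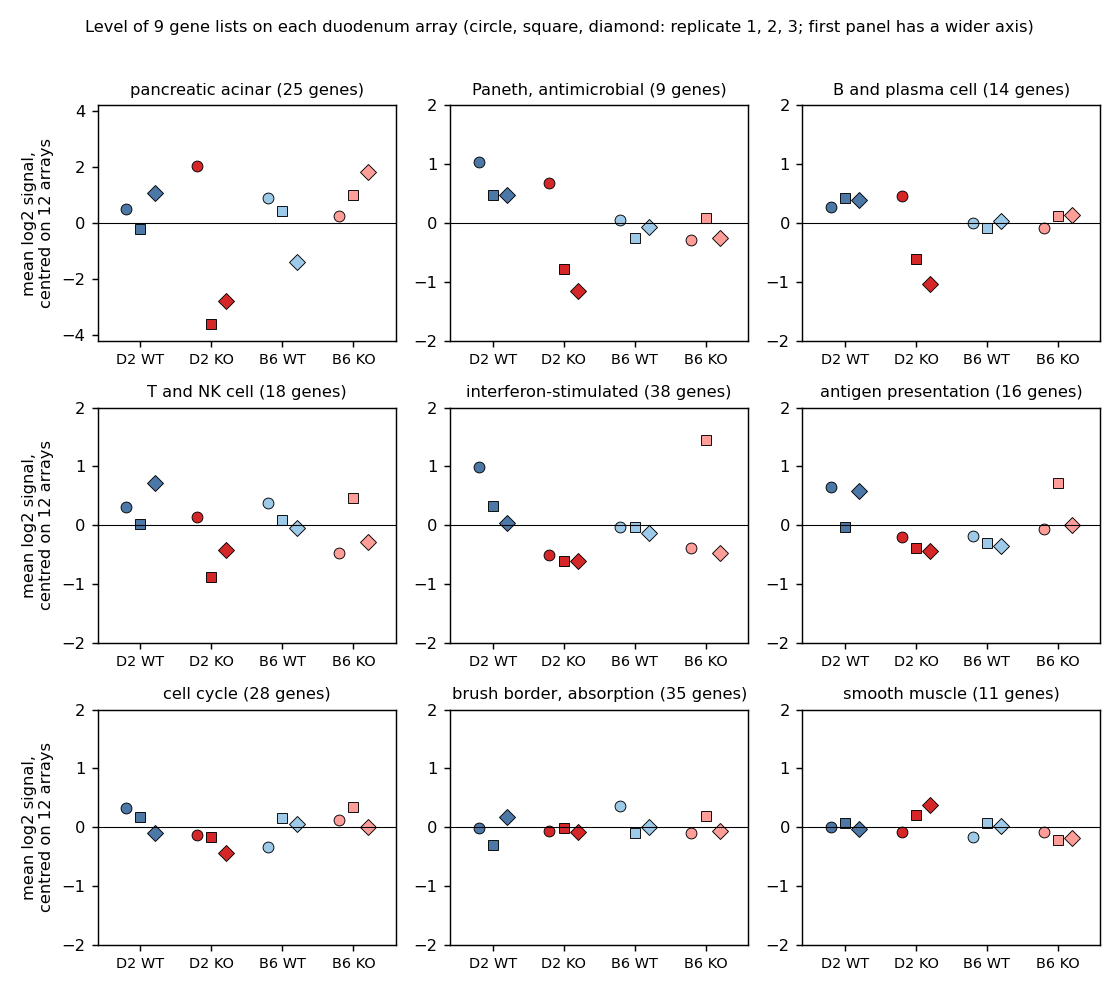
Mean log2 signal of 9 gene lists on each of the 12 duodenum arrays, with each gene centred on its mean over the 12 arrays; circles, squares and diamonds are replicates 1, 2 and 3, and the first panel has a wider axis. D2 KO 2 and D2 KO 3 are low in acinar, Paneth and B and plasma cell genes and D2 KO 1 is not, whereas all 3 D2 KO arrays are low in interferon-stimulated genes and the brush border genes stay near 0.

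T and NK cell genes of the intraepithelial compartment had a median of -0.67 over 18 genes, of which 1 fell, against 0.492% of all genes called. D2 KO 1 was the highest KO array in 15 of the 18 and below every WT array in 3. D2 KO 2 and D2 KO 3 were both below every WT array in 13. The shares of all genes with these patterns were not counted. The centred mean log2 level was 0.30, 0.019 and 0.72 in WT and 0.14, -0.88 and -0.42 in KO mice. *Ccr9*, the receptor that directs lymphocytes to the small intestine, was 99.5, 86.4 and 174 in the wild-type arrays and 56.3, 24.8 and 35.4 in the *Hfe*-/- arrays (log2 fold change -1.64, SE 0.31, adjusted p = 0.0808). The chemokine *Ccl5* was 706, 543 and 1063 against 557, 243 and 224 (log2 fold change -1.25, adjusted p = 0.158) and the granzyme *Gzma* 3059, 1675 and 2871 against 1853, 1452 and 1285 (log2 fold change -0.70, adjusted p = 0.322), neither of them called. The call of *Ccr9* was lost without any 1 of 8 arrays, D2 KO 2, D2 KO 3, D2 WT 1 and D2 WT 3 among them, at -1.74 to -1.34. Enterocyte brush border and absorption genes, by contrast, had a median of 0.02 over 35 genes with 0 called. *Slc5a1*, the sodium-glucose transporter, was 3571, 3065 and 3882 against 2688, 2607 and 2352 (log2 fold change -0.46, adjusted p = 0.237), and the aminopeptidase *Anpep* was 1002, 472 and 953 against 356, 329 and 241 (log2 fold change -1.33, adjusted p = 0.246). At these probe sets the KO arrays were below the WT arrays, with D2 WT 2 the lowest of the WT arrays, whereas a second bright *Slc5a1* probe set had -0.011 with overlapping groups.

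Interferon-stimulated genes were lower in KO mice as a list but none was called. Interferons are cytokines released on viral infection, and they act through STAT factors that bind an interferon-stimulated response element (ISRE) or a gamma-activated site (GAS) in promoters of their target genes. All 38 genes tested had a negative log2 fold change, with a median of -1.04, and in 28 the groups did not overlap, against 16.5% of all genes. To show the letters that such a promoter holds, the 250 bases before the start of 3 of these genes are given from RefSeq (GRCm38.p6), 5′ to 3′ along the strand of the gene, with matches in capitals: *Ifit1* on chr19:34640639-34640888 (plus strand), *Rsad2* on chr12:26456453-26456702 (minus strand) and *Igtp* on chr11:58199306-58199555 (plus strand).
Ifit1: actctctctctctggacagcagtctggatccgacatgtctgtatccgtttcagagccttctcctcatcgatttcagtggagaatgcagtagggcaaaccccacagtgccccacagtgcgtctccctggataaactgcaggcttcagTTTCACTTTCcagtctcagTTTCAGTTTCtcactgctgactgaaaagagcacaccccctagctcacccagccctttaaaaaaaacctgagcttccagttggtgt
Rsad2: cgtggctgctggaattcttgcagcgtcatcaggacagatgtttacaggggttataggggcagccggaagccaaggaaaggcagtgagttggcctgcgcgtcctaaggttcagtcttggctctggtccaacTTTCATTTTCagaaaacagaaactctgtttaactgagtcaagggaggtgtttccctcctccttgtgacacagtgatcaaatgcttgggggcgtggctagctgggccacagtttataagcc
Igtp: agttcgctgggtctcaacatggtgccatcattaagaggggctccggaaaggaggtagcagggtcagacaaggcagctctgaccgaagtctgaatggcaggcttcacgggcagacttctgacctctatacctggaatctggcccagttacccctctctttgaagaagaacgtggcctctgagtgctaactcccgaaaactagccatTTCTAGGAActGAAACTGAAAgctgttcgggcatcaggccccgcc

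The ISRE was searched as GAAA, any 2 bases and GAAA again and the GAS as TTCNNNGAA, on both strands. *Ifit1* has 2 ISRE matches, both on the other strand, *Rsad2* has 1, also on the other strand, and *Igtp* has 1 ISRE match and 1 GAS match that do not overlap. The ISRE letters are found in 2.98% of 32851 promoters of this length and the GAS letters in 7.02%. Of the 27 list members with a promoter in the table, 12 hold an ISRE match (44.4%, against 3.46% of 27025 genes) and 4 a GAS match (14.8%, against 8.13%). A match describes the letters and is not evidence of binding.

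*Igtp*, a GTPase induced by interferon gamma, was 1450.3, 449.8 and 491 in the wild-type arrays and 237, 118 and 119.6 in the *Hfe*-/- arrays (log2 fold change -2.19, SE 0.59, adjusted p = 0.19). *Ifit1*, an antiviral protein that binds foreign RNA, was 793, 535 and 389 against 168, 125 and 166 (log2 fold change -1.85, adjusted p = 0.305), and *Rsad2*, the antiviral enzyme viperin, was 1045, 751 and 466 against 182, 208 and 263 (log2 fold change -1.73, adjusted p = 0.313). In these genes D2 WT 1 was the highest array and no KO array reached a WT array. The protease *Usp18*, which restrains interferon signaling, was 352, 217 and 85.4 against 39.3, 39.9 and 34.5 (log2 fold change -2.30, adjusted p = 0.24), and *Oasl2*, an antiviral protein of the oligoadenylate synthetase family, was 1143, 744 and 579 against 265, 215 and 249 (log2 fold change -1.70, adjusted p = 0.235). D2 WT 1 was the highest WT array in 35 of the 38 genes, and without it the median was -0.74. D2 KO 1 was below every WT array in 32 genes, as D2 KO 2 and D2 KO 3 both were in 32. The shares of all genes with these 2 patterns were not counted, and the 16.5% above is for all 3 KO arrays. Without D2 KO 1, 1 gene was called, and with the run and station block the median was -0.58, with 36 of the 38 negative. In B6 mice 1 array, B6 KO 2, was the highest of the 6 in all 38 genes, and the median log2 fold change was 0.13.

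Antigen presentation genes had a median of -0.65 over 16 genes, all of them negative, with 12 separated between the groups, against 16.5% of all genes, and 0 called. *H2-Ab1*, a chain of the class II molecules that present peptides to T cells, was 1516, 749 and 1999 in the wild-type arrays and 602, 505 and 453 in the *Hfe*-/- arrays (log2 fold change -1.35, SE 0.30, adjusted p = 0.118). *H2-Aa*, its partner chain, was 3148, 1924 and 4689 against 1617, 1229.6 and 1150.0 (log2 fold change -1.21, adjusted p = 0.134), and *Cd74*, the invariant chain, was 2809, 1993 and 4289 against 1718, 1446 and 1231 (log2 fold change -0.99, adjusted p = 0.143). The KO arrays lay close together below the WT arrays, which were spread with D2 WT 3 highest and D2 WT 2 lowest. *Nlrc5*, the activator of class I genes, was 78.4, 51.6 and 62.7 against 25.3, 18.1 and 20.4 (log2 fold change -1.59, adjusted p = 0.167). The number of these genes called was 6 without D2 KO 1, 5 without D2 WT 2 and 3 with the station block, where 3.31%, 0.415% and 0.284% of all genes were called.

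The study names 12 tested genes of defense in this comparison, of which *Casp4* fell and 11 were not called, with a median of -0.79; the study chose them on these same arrays, so this is not independent evidence. *Casp4*, an inflammatory caspase, was 220.4, 182 and 223 in the wild-type arrays and 152, 108 and 114 in the *Hfe*-/- arrays (log2 fold change -0.75, SE 0.14, adjusted p = 0.0808). *Shisa5*, an inducer of cell death, was 1476, 1531 and 1321 against 1274, 841 and 969.7 (log2 fold change -0.51, adjusted p = 0.257), *Psme1*, a subunit of a proteasome activator, was 2141, 1808 and 2166 against 1522, 1556 and 1569 (log2 fold change -0.39, adjusted p = 0.329), and *Ddx58*, a sensor of viral RNA, was 244, 238 and 261 against 183, 153 and 164 (log2 fold change -0.57, adjusted p = 0.355). All of their KO arrays lay below the WT arrays. *Tnfrsf17* and *Tnfrsf13b*, receptors of plasma and B cells, had -0.84 (adjusted p = 0.279) and -0.85 (adjusted p = 0.322), with D2 KO 1 the highest KO array at 39.7 and 78.9. Without D2 KO 1, 5 of the 12 fell, against 3.31% of all genes called. The call of *Casp4* was lost without any 1 of 8 arrays, D2 KO 2, D2 KO 3, D2 WT 1 and D2 WT 3 among them, at -0.75 to -0.66.

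Cell cycle genes of the dividing crypt had a median of -0.40 over 28 genes, 27 of them negative, with 12 separated between the groups, against 16.5% of all genes, and 0 called. *Mcm7*, a subunit of the replicative helicase, was 687, 675 and 592 against 525, 511 and 451 (log2 fold change -0.39, adjusted p = 0.237) with a dimmer probe set at 0.081, and *Birc5*, a survival and mitosis protein, was 401, 356 and 299 against 259, 213 and 168 (log2 fold change -0.73, adjusted p = 0.24). Of the falls named for their size, 4 are not on that list and are not counted with it: *Nusap1*, a spindle protein, was 205, 198 and 162 against 110.5, 129 and 95.4 (log2 fold change -0.76, adjusted p = 0.0851), *Racgap1*, which acts in cytokinesis, was 131, 129 and 118 against 90.4, 81.9 and 79.1 (log2 fold change -0.59, adjusted p = 0.087), and *Topbp1*, which acts at replication forks, was 175, 158 and 141 against 105, 103 and 85.7 (log2 fold change -0.69, adjusted p = 0.0808). In these genes each KO array was below each WT array. *H2az1*, a histone variant, was 2559.8, 2742 and 2458 against 2019, 1829 and 1775 (log2 fold change -0.47, adjusted p = 0.095), and its second probe set, not called, had 0.045. All 4 calls were lost without any 1 of 7 to 9 of the 12 arrays, D2 WT 1, D2 KO 2 and D2 KO 3 among them, at -0.87 to -0.65, -0.59 to -0.55, -0.73 to -0.60 and -0.47 to -0.42. With the station block the median of the cell cycle list was -0.13.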

How the data were processed

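RNA of the duodenum of 12 mice (4 groups of 3, 1 array each) was used here, with the D2 liver arrays for comparison. Per the labels the authors computed MAS5 signals (version not stated), and the study's methods scale each array to a target mean of 100; the deposited table gives the resulting intensity of each probe set, not log-transformed. AFFX controls were left out, and 28061 of 45101 probe sets were kept because their third-highest signal was at least 20 over the 12 liver or the 12 duodenum arrays. Log2 of the signal, with no pseudocount, was fitted in limma 3.58.1 (R 4.3.3; lmFit with eBayes, the trend of variance on mean included) to the 12 duodenum arrays with 1 mean per group, so that all groups share an estimate of the spread, and liver was fitted separately. P values were adjusted by Benjamini-Hochberg over the probe sets kept and called at 0.1 or less. The S-score of the study's methods needs probe-level files and was not used here. The procedure was also run on the duodenum signals with group differences removed and known shifts added to 200 probe sets on the D2 KO arrays. That run filtered probe sets on the duodenum arrays alone, and its outcome is not reported here.

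Of the probe sets 34958 carry 1 symbol, 932 several and 9211 none in the platform annotation, and each gene was read from its brightest kept probe set, by mean log2 signal over the duodenum arrays, that carries no other symbol. Members and gene lists were chosen with earlier results of these data known; 568 of 672 listed genes were tested. By rule the text may name the 15 largest rises and falls with separated groups and a mean of at least 100 in the higher group, up to 5 members of a list with the smallest adjusted p, the 3 brightest members of a cell type list, called genes near *Hfe* and genes the study names for duodenum. *Aldh18a1*, *Ank*, *Gas5*, *Hao2*, *Phyh*, *Rsad2*, *Scarb1*, *Sult2a8* and *Tspan4* were named after their values were seen. The number of arrays limits the precision, and whether same-numbered mice share anything is not stated. Alternatives covered the pseudocount, scaling, filter, arrays, variance model, hybridization run and station, replicate block, acinar covariate, threshold and probe sets of a gene; list counts without single arrays and differences within a station were added after seeing the data.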

Additional observations from a re-analysis of the deposited data

Results flagged for a closer look

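The D2 effect differed from the B6 effect in duodenum, by a test of the difference itself in limma, at 4 probe sets. The first is a second *Atxn1* probe set, not the one that represents the gene. It had 45.7, 39.2 and 47.1 in D2 WT and 211, 227 and 249.7 in D2 KO mice, against 261, 189 and 197 in B6 WT and 254, 197 and 212 in B6 KO mice, so that D2 KO lay at the level of B6 (difference of effects 2.34, adjusted p = 0.00145). The representative *Atxn1* probe set had 139.8, 133 and 166 against 187, 224 and 223 in D2 and was not called (log2 fold change 0.53, adjusted p = 0.199). *Atxn1*, the ataxin 1 gene, also lies on chromosome 13, outside the window of 20 Mb.

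For *Akr1c19* the difference of effects was -2.0 (adjusted p = 0.0109) and for *Stard3nl* it was 1.22 (adjusted p = 0.0881); both lie within 20 Mb of *Hfe*. A probe set without a single gene symbol had 784, 849 and 826 in D2 WT and 959.8, 1295 and 1361 in D2 KO mice, and 1007, 1234 and 1132 in B6 WT and 675, 669.9 and 624 in B6 KO mice, so that it was higher in D2 KO and lower in B6 KO mice (difference 1.31, adjusted p = 0.0388). Its own change did not pass in either strain (0.54, adjusted p = 0.121 in D2; -0.77, adjusted p = 0.193 in B6). With the hybridization run as a block the *Atxn1* probe set alone kept its call (2.13, adjusted p = 0.0498), and with run and station as a block none of the 4 did, at differences of 2.03 for *Atxn1*, -1.75 for *Akr1c19*, 0.88 for *Stard3nl* and 1.26 for the unnamed probe set. With no variance trend *Atxn1* alone was called as well (*Akr1c19* had an adjusted p of 0.127 in limma, the other 2 had 0.222). The *Stard3nl* call was also lost with quantile normalization (adjusted p = 0.102), with the acinar covariate (adjusted p = 0.437), without D2 KO 2 and D2 KO 3 together (adjusted p = 0.539) and without any 1 of 8 arrays (D2 WT 1, D2 KO 2, D2 KO 3, the 3 B6 WT arrays, B6 KO 2 and B6 KO 3), at adjusted p values of 0.131 to 0.353. The unnamed probe set lost its call without D2 KO 2 and D2 KO 3 together (adjusted p = 0.210) and without any 1 of 6 arrays (D2 WT 1, D2 KO 2, D2 KO 3, B6 WT 3, B6 KO 1 and B6 KO 3), at differences of 1.22 to 1.33 and adjusted p values of 0.104 to 0.20. *Atxn1* and *Akr1c19* were called without any 1 array.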

How the results depend on the processing

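Against 72 rises and 34 falls, the counts were 101 and 42 with log2 of signal plus 16, 55 and 22 with no filter, 12 and 9 with only the 6 D2 arrays, 21 and 10 with no variance trend, 34 and 11 with the hybridization run as a block, 64 and 17 with run and station as a block, 21 and 15 with the acinar covariate, 24 and 6 at an adjusted p of 0.05, and 3 and 24 without D2 KO 2 and D2 KO 3 together. Only 15 and 26 of the 106 were among the calls with the station block and the covariate. Quantile normalization gave 79 and 34 and a third-highest signal of at least 100 gave 87 and 42. Leaving out 1 array gave 27 to 56 rises and 7 to 24 falls for the B6 WT arrays, 32 to 107 and 9 to 94 for B6 KO, 16 (without D2 WT 1) to 189 (without D2 WT 3) and 4 to 49 for D2 WT, and 10 (without D2 KO 3) to 380 (without D2 KO 1) and 6 to 403 for D2 KO. Same-numbered D2 arrays did not deviate together (correlations of -0.00135, -0.0192 and -0.0611); with the replicate block 34 rose and 8 fell.

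The count of differences between strains, 4, was 1 with no variance trend and with either block, 5 with the replicate block, where *Stard3nl* was not called (adjusted p = 0.236), and with the covariate, and 2 to 6, 3 to 93 and 2 to 349 without 1 B6, D2 WT or D2 KO array, 20 of them without D2 WT 2; it was not run on the 6 D2 arrays alone. *Hfe* missed the threshold with the station block (-1.42), without D2 KO 2 and D2 KO 3 (-1.77), with the mean of its probe sets (-1.06) and in 2 of the runs that left out 1 array (-1.46 and -1.43). Genes that were not called turned sign without D2 KO 2 and D2 KO 3: *Cela3b* to 0.57, *Cpb1* to 1.11, *Ctrb1* to 0.64, *Igha* to 0.041, *Jchain* to 0.14, *Lyz1* to 0.020, *Pla2g2a* to 0.14 and *Tff2* to 1.09. *Tff2* was 0.049 with the station block and 0.50 to 1.94 and *Gkn3* -0.72, -0.43 and -0.16 in the runs without 1 array that turned them. The causes were not tested. Signals near the lower end of the scale limit the size of the changes of *Hao2* and *Sult2a8*.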
